A study of Rattus norvegicus with 80 samples.

Results

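The neutrophil-attracting CXC chemokine genes Cxcl1, Cxcl2, Cxcl3 and Cxcl6 were followed in whole rat lung after instillation of nanofibres. The genes were chosen by symbol, and they are 4 of the 15924 genes that could be named on the array. Male Sprague-Dawley rats (strain Crl:CD[SD], 7 weeks old at purchase) received a single intratracheal instillation of one of the cellulose nanofibrils CNF1, CNF2 and CNF3, of multi-walled carbon nanotubes (MWCNT), or of vehicle, which was distilled water containing preservatives. Each material had a vehicle control of its own, and arrays were labelled with doses of 0.5, of 1.0 or of 2.0 mg/kg. Right lungs were taken after perfusion with saline 1, 3, 7, 30 and 90 days later, which gave 80 arrays with 1 array for each material, dose and day. The labels name 4 rats per group and time point, and they do not say whether an array holds 1 rat or a pool (the array labels end in replicate 4 on 73 arrays and replicate 3 on 7, with no other array of the same group). The treatment text of the labels names 1 mg/kg for every rat and gives the 0.5, the 1.0 and the 2.0 as mg/mL of suspension, so the doses below are those of the array labels. Because no group had a second array of the same day, the days served as the repeats in the fits over several days. Their p-values measure the scatter of the day-matched differences over days and doses rather than the spread between rats. In the dose slopes of single days they measure the departure of the dose levels from a straight line.

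CXC chemokines are small secreted proteins, and those that carry a Glu-Leu-Arg motif ahead of the first cysteines bind the receptors Cxcr1 and Cxcr2 and draw neutrophils out of the blood. In the lung they are made by alveolar macrophages, epithelium and other cells after tumour necrosis factor, interleukin-1 or microbial products have switched on NF-κB, the transcription factor family that drives many early inflammatory genes. Their mRNAs are short-lived, and the amount in tissue depends both on transcription and on the control of mRNA decay. Cxcl1 and Cxcl2 are the classical early attractants of rodents, Cxcl3 is their close relative, and rat Cxcl6, listed under the older name Cxcl5 in the platform annotation, is best known as a product of lung epithelium.

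All 4 genes lie in one cluster on chromosome 14 of the GRCr8 assembly. The protein-coding genes there run in the order Epgn, Mthfd2l, Cxcl2, Cxcl1, LOC134481726, Cxcl3, Pf4, Ppbp, Cxcl6, Rassf6 and Albfm1. The promoter windows of RefSeq, which span 250 bases before to 50 bases after the annotated start on the minus strand, were available for 3 of the genes. They are printed because NF-κB binding sites of the GGGNNNNNCC form are the best-known control elements of this family. Capitals mark every match to GGGNNNNNCC on either strand, with overlapping matches run together. The windows are chr14:17479272-17479571 for Cxcl1, chr14:17467206-17467505 for Cxcl2 and chr14:17596368-17596667 for Cxcl6.
Cxcl1: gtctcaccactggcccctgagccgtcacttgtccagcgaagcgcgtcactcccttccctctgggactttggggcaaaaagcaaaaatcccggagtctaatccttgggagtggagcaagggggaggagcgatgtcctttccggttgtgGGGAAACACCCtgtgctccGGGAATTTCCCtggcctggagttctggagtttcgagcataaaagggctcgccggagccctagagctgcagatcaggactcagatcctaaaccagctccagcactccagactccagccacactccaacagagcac
Cxcl2: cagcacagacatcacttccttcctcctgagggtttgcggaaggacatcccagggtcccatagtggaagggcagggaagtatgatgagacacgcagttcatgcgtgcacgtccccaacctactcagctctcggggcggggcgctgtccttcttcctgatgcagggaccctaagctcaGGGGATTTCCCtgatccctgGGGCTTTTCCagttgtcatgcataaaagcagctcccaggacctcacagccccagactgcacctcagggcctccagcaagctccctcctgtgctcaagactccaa
Cxcl6: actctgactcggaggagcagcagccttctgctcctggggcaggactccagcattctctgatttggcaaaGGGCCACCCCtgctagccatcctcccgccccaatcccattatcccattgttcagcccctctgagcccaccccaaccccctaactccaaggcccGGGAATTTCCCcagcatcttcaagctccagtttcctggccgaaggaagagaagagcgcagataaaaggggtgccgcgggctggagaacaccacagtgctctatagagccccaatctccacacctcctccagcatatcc
Cxcl1 and Cxcl6 both held the spelling GGGAATTTCC, which began 84 bases before the start in Cxcl1 and 88 bases before it in Cxcl6. Cxcl2 held a match spelled GGGATTTCCC that began 73 bases before the start and another, GGGCTTTTCC, 54 bases before it. GGGNNNNNCC was found on either strand in 47.3% of the 33469 rat promoter windows of the same length. GGGAATTTCC was found in 25 of them, but this spelling was read off the Cxcl1 and Cxcl6 windows, which are among the 25. Its rarity is therefore no test of a shared element. All 3 windows also held ATAAAAG, at 47 bases before the start in Cxcl1, 33 in Cxcl2 and 28 in Cxcl6. That string was searched after the sequences had been seen, and 5.7% of the windows hold it. A match describes the letters of the window and is not evidence of binding.

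The deposited values are on a log scale and centred probe by probe. The base is not stated and was taken as 2, so folds below rest on it. The values give differences between arrays, not the level of one gene against another. The 80 arrays shared 1 dominant pattern, a first component with 33.6% of the variance, and the median of all genes on an array differed between dose levels. This median had a middle value of -0.05 in the 20 vehicle arrays, and of 0.08, -0.02 and -0.04 in the arrays of the low, middle and high dose. The array's own control spots, 15 probes for spiked or absent sequences, moved further on average. Their mean had a middle value of -0.43 in the vehicle arrays and of 0.31, 0.34 and -0.26 in those of the low, middle and high dose. Cxcl6 moved with the array median (r = 0.51 over 80 arrays) and with the control spots (r = 0.42). For Cxcl1, Cxcl2 and Cxcl3 the correlation was -0.19, 0.09 and -0.02 with the array median and -0.21, 0.22 and -0.02 with the control spots. Effects were fitted with limma across all genes with material and day as blocks, and a gene was called at a Benjamini-Hochberg adjusted p under 0.05. Each exposed array was set against the vehicle array of the same material and day. In whole lung, a change in the number of cells that make a transcript and a change in RNA per cell cannot be told apart.

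In the 20 vehicle arrays, Cxcl2 lay between -1.20 and -0.31 with a median of -0.78. Cxcl1 ran from -0.76 to 0.49, with -0.76 to -0.16 on day 1 and 0.00 to 0.49 on day 90. Cxcl1 was the only one of the 4 genes to pass the F test between days in the vehicles (adjusted p = 0.036, a test that 11.9% of all genes passed). None of the 4 passed the test between the vehicles of the different materials, which 6.44% of all genes passed. Cxcl6 came nearest in that test (adjusted p = 0.07) and had the widest spread, with an SD of 0.76 within days against 0.26 for Cxcl1, 0.25 for Cxcl2 and 0.31 for Cxcl3. Its values in the CNF3 vehicle were 0.42 on day 7 and 0.18 on day 30, and the other 18 vehicle arrays lay between -2.28 and -0.44. The effect of CNF3 on Cxcl6 is therefore given both with and without that vehicle.

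Cxcl2 rose after every material at 2.0 mg/kg. In the MWCNT arrays it read 0.73, 1.08, 1.24, 1.80 and 2.30 on days 1, 3, 7, 30 and 90, against -0.31, -0.75, -0.51, -0.51 and -1.20 in the matching vehicles. Each of these 5 arrays was above all 20 vehicle arrays (8.21% of all genes had all 5 above their 5 own vehicles), and each value was higher than that of the preceding day. CNF3 ran the other way, with 2.54, 0.05, -0.33, 0.02 and -0.04 over the same days against vehicles of -1.07, -0.80, -0.61, -0.56 and -0.85. CNF2 read 1.72, 0.65, -0.11, -0.73 and -0.41, and its vehicles -0.87, -0.43, -1.01, -0.71 and -0.90. CNF1 read 1.11, 0.75, 0.83, -0.67 and -0.06, and its vehicles -0.67, -0.87, -0.35, -1.10 and -0.95. The nanofibril arrays were thus highest on day 1, while the MWCNT array was the lowest of the 4 materials on that day and the highest from day 3 on. The CNF1 and CNF2 arrays of day 30 fell inside the range of the vehicles, as did 1 further CNF2 array on day 90 and the CNF3 array of day 7.

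**Figure D1:**
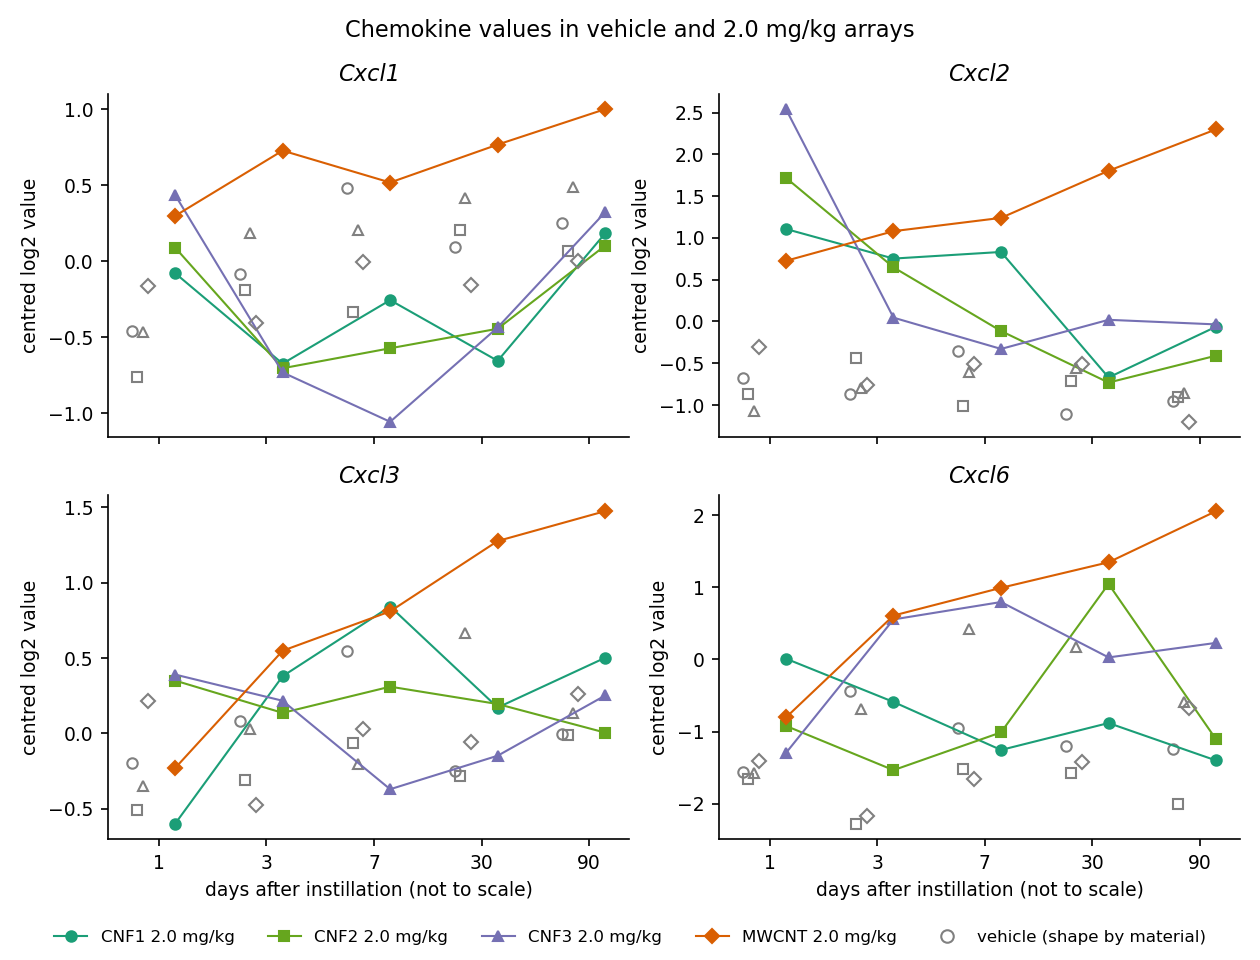
Centred log2 values of Cxcl1, Cxcl2, Cxcl3 and Cxcl6 (vertical axes) by day after instillation (horizontal axes, evenly spaced), with grey open symbols for the vehicle arrays and coloured lines for the 2.0 mg/kg array of each material; every point is 1 array. For Cxcl2 the MWCNT line climbs from 0.73 on day 1 to 2.30 on day 90, while the CNF3 line drops from 2.54 on day 1 to 0.05 on day 3.

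Over the 5 days the fitted Cxcl2 difference from the own vehicle was 2.09 ± 0.31 (SE) for MWCNT, a 4.25-fold difference (adjusted p = 3.6e-06). It was 1.18 ± 0.31 for CNF1 (adjusted p = 0.0019), 1.01 ± 0.31 for CNF2 (adjusted p = 0.011) and 1.23 ± 0.31 for CNF3 (adjusted p = 0.0038). At this dose 21.8% of all genes were called in either direction after MWCNT, 41.6% after CNF1, 31.3% after CNF2 and 19.7% after CNF3, so a call alone was common. The median of all genes in these comparisons lay between 0.00 and 0.04. Cxcl2 exceeded 99.8% of genes in the MWCNT comparison and between 98.1% and 99.2% in those of the nanofibrils. Without the day 1 arrays the difference was 0.61 for CNF2 (adjusted p = 0.054) and 0.63 for CNF3 (adjusted p = 0.087), and neither passed. Both calls were also lost when only the vehicle and 2.0 mg/kg arrays were fitted (adjusted p = 0.091 and 0.073), and that of CNF2 without day 3 (0.99, adjusted p = 0.074). Over all 15 alternatives the adjusted p ran from 0.0016 to 0.091 for CNF2 and from 0.00028 to 0.087 for CNF3.

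On day 1 Cxcl2 followed the dose of each nanofibril step by step. From vehicle through the low and middle to the high dose it read -0.67, -0.17, 1.04 and 1.11 with CNF1, -0.87, 0.37, 0.59 and 1.72 with CNF2, and -1.07, 0.87, 1.60 and 2.54 with CNF3. A value higher at each step in all 3 nanofibrils on day 1 occurred in 0.521% of all genes. With MWCNT on day 1 the order above the vehicle was reversed, with 1.27 at 0.5, 1.00 at 1.0 and 0.73 at 2.0 mg/kg. By day 90 the MWCNT arrays had lined up with dose, at -1.20, 0.21, 1.10 and 2.30, an order that 5.56% of all genes showed on that day. Cxcl2 also rose at each dose step on day 3 with CNF2, on days 3 and 30 with CNF3 and on day 30 with MWCNT. The shares of all genes were counted only for day 1 of the nanofibrils and day 90 of MWCNT, a choice not set in advance. Fitted as a slope per mg/kg, the dose relation was called for CNF3 on day 1 (1.68 ± 0.34, adjusted p = 0.0056, 1.12% of all genes called) and for MWCNT on day 90 (1.69 ± 0.34, adjusted p = 0.0022, 2.43% called). These were 2 of 80 slopes over the 4 genes, 4 materials and 5 days, of which 17 had an unadjusted p under 0.05. For CNF1 the slope was called in 6.27%, 27.9%, 6.23%, 0.126% and 0.0126% of all genes on days 1 to 90, and for CNF2 in 0.484%, 5.91%, 0.421%, 0.333% and 0.0628%. For CNF3 the shares after day 1 were 0.107%, 0.0314%, 0.892% and 0.138%, and for MWCNT those before day 90 were 0.144%, 0.00%, 0.157% and 0.245%. The day 1 slopes of CNF1 (0.93 ± 0.34, adjusted p = 0.086) and CNF2 (1.20 ± 0.34, adjusted p = 0.09) did not pass. Both called slopes fell short of the threshold when the arrays were quantile-normalized (adjusted p = 0.32 for CNF3 and 0.12 for MWCNT) or when the 2.0 mg/kg arrays were left out (adjusted p = 0.16 and 0.45). Leaving out the vehicle or the 1.0 mg/kg array also ended the CNF3 call (adjusted p = 0.059 each). The adjusted p ran from 5.9e-06 to 0.32 over the 12 alternatives for CNF3 and from 4e-07 to 0.45 for MWCNT.

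**Figure D2:**
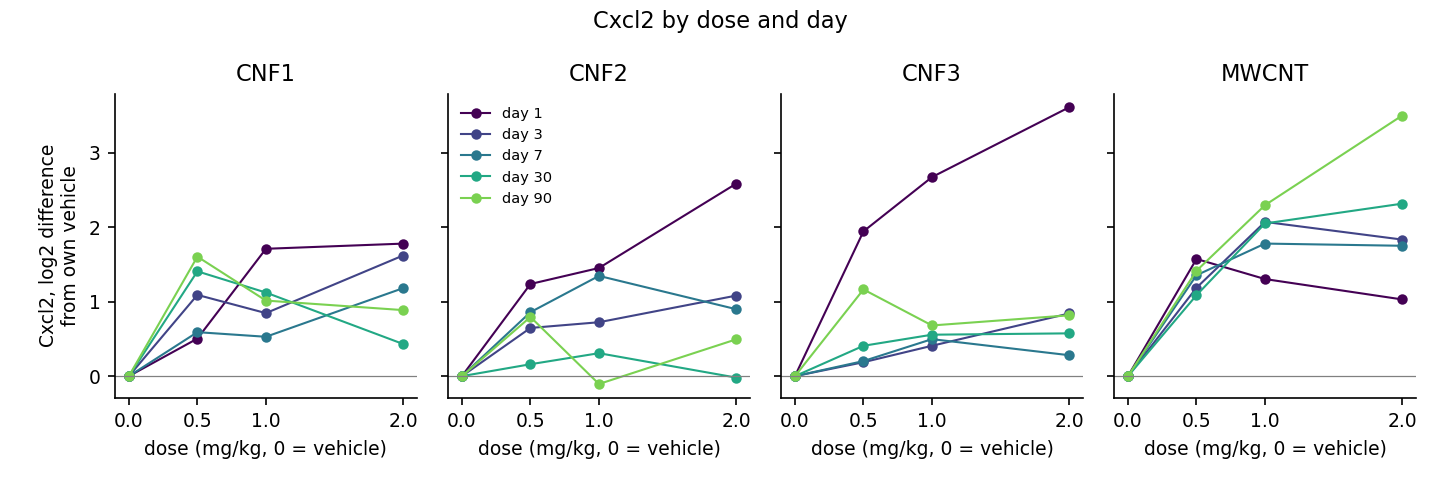
Difference of Cxcl2 from the own vehicle (vertical axis, log2) against labelled dose in mg/kg (horizontal axis, 0 is the vehicle), 1 panel per material and 1 line per day; every point is 1 array minus its vehicle array. The steepest line is day 1 for CNF3, which reaches 3.61, and day 90 for MWCNT, which reaches 3.50.

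At the lower doses Cxcl2 passed in 3 of 4 materials at each dose, but these arrays also differed from the vehicles in their control spots. With 3 factors of the control spots in the fit, none of the 15 calls of the 4 genes at 0.5 and 1.0 mg/kg passed. The share of all genes called then fell to between 0.00% and 9.90% at these doses, and the median SE of all genes rose from 0.12 to between 0.15 and 0.23. At 2.0 mg/kg the same factors left 18.8% to 36.3% of all genes called. Each lower-dose value below carries that limit. At 0.5 mg/kg it rose by 1.32 ± 0.31 after MWCNT (adjusted p = 0.00082), 1.04 after CNF1 (adjusted p = 0.0053) and 0.74 after CNF2 (adjusted p = 0.043). The CNF3 difference of 0.78 did not pass (adjusted p = 0.052). The share of all genes called at this dose was 37.9% for MWCNT, 47.5% for CNF1, 50.6% for CNF2 and 29.4% for CNF3, and the median of all genes lay between 0.11 and 0.14 above the vehicles. At 1.0 mg/kg Cxcl2 rose by 1.90 ± 0.31 after MWCNT (adjusted p = 6.8e-05), 1.05 after CNF1 (adjusted p = 0.0078) and 0.96 after CNF3 (adjusted p = 0.02), and the CNF2 difference was 0.75 (adjusted p = 0.051). The shares of all genes called higher at 1.0 mg/kg were 8.46%, 20.6%, 18.7% and 27.6% for MWCNT, CNF1, CNF3 and CNF2. With the control-spot factors Cxcl2 was 0.00 after MWCNT (adjusted p = 1), -0.40 after CNF1 (adjusted p = 0.84) and -0.59 after CNF2 (adjusted p = 0.62) at 0.5 mg/kg. At 1.0 mg/kg it was 1.05 after MWCNT (adjusted p = 0.52), -0.01 after CNF1 (adjusted p = 1) and 0.21 after CNF3 (adjusted p = 0.85). Those were the highest adjusted p-values over 14 alternatives, and the lowest lay between 7.6e-09 and 0.016. The call of CNF2 at 0.5 mg/kg was also lost without day 3, 7 or 90, and that of CNF3 at 1.0 mg/kg without day 1 (0.54, adjusted p = 0.14) or day 3 (1.10, adjusted p = 0.054).

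Cxcl1 rose after MWCNT and passed after no nanofibril at 2.0 mg/kg. At 2.0 mg/kg its values were 0.30, 0.73, 0.52, 0.77 and 1.00 on days 1 to 90, against -0.16, -0.41, 0.00, -0.16 and 0.00 in the vehicles. At 1.0 mg/kg they were 0.79, 0.92, 0.70, 0.95 and 1.07. At 2.0 mg/kg all 5 arrays were above all 5 own vehicle arrays, which 8.21% of all genes showed. From the lowest to the highest dose the fitted differences were 0.53 ± 0.20 (adjusted p = 0.028), 1.03 ± 0.20 (adjusted p = 0.00069) and 0.81 ± 0.20 (adjusted p = 0.0021). The last is a 1.75-fold difference. With the control-spot factors the lower doses were 0.24 (adjusted p = 0.83) and 0.95 (adjusted p = 0.36), and the call at 0.5 mg/kg was also lost without day 3, 7, 30 or 90.

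After the nanofibrils at 2.0 mg/kg the mean Cxcl1 difference was positive on day 1 and negative on the later days, a change that was not tested. The Cxcl1 vehicles also differed by day. Those of CNF1, CNF2 and CNF3 read -0.46, -0.76 and -0.46 on day 1 and 0.09, 0.21 and 0.41 on day 30. On day 1 the 2.0 mg/kg arrays read -0.08, 0.09 and 0.44 for CNF1, CNF2 and CNF3, each above its vehicle, and the mean of the 3 differences was 0.71 ± 0.29 (SD over the 3 materials). On days 3, 7 and 30 the mean differences were -0.67 ± 0.21, -0.75 ± 0.51 and -0.75 ± 0.10, and all 9 arrays were below their vehicles. CNF3 on day 7 was the lowest of the 80 Cxcl1 values, at -1.06 against 0.20 in its vehicle. On day 90 the mean difference was -0.07 ± 0.10. Over the 5 days the differences were -0.35 ± 0.20 for CNF1 (adjusted p = 0.15), -0.10 for CNF2 (adjusted p = 0.71) and -0.46 for CNF3 (adjusted p = 0.093), none of which passed. Without day 1 Cxcl1 was called lower after CNF3 (-0.80, adjusted p = 0.00071) and CNF1 (-0.54, adjusted p = 0.0077), and after CNF3 also when the arrays were quantile-normalized (-0.71, adjusted p = 0.011). The adjusted p over the 15 alternatives ran from 0.00071 to 0.53 for CNF3 and from 0.0077 to 0.44 for CNF1.

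Cxcl6 rose after MWCNT at 2.0 mg/kg and was also called at the lower doses. At 2.0 mg/kg it read -0.80, 0.61, 0.99, 1.35 and 2.05 on days 1 to 90, against -1.41, -2.17, -1.66, -1.43 and -0.68 in the vehicles. The day 1 array was inside the range of the 20 vehicle arrays, whose highest value was 0.42. The fitted difference was 2.31 ± 0.36, a 4.95-fold difference (adjusted p = 7.2e-06). It was 2.20 ± 0.36 at 0.5 mg/kg (adjusted p = 7.3e-06) and 2.02 ± 0.36 at 1.0 mg/kg (adjusted p = 0.00027), so the 3 dose levels differed by less than their standard errors. With the control-spot factors the difference at 2.0 mg/kg was 2.26 (adjusted p = 7.2e-07), whereas those at 0.5 (0.88, adjusted p = 0.53) and 1.0 mg/kg (1.43, adjusted p = 0.4) did not pass.

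With CNF1 and CNF2 the fitted Cxcl6 difference was largest at 0.5 mg/kg. With CNF1 the 5 arrays at 0.5 mg/kg lay between 0.18 and 0.56, those at 1.0 mg/kg between -0.92 and -0.29, and those at 2.0 mg/kg between -1.40 and 0.01, against -1.55 to -0.44 in the vehicles. The fitted difference was 1.40 ± 0.36 at 0.5 mg/kg of CNF1 (adjusted p = 0.0014), where 47.5% of all genes were called, against 0.26 at 2.0 mg/kg (adjusted p = 0.64). With CNF2 the differences were 1.95 ± 0.36 at 0.5 (adjusted p = 1.8e-05), 1.93 at 1.0 (adjusted p = 3.8e-05) and 1.10 at 2.0 mg/kg (adjusted p = 0.016). The 2.0 mg/kg CNF2 arrays read -0.92, -1.53, -1.01, 1.05 and -1.11, so the day 30 array stood far above the rest, and without day 30 the difference was 0.72 (adjusted p = 0.2). That call was also lost against the mean of the 4 vehicles (0.50, adjusted p = 0.23), with 3 factors of the control spots removed (0.82, adjusted p = 0.054) and with CNF2 fitted alone (adjusted p = 0.063), and the adjusted p ran from 0.011 to 0.23 over 15 alternatives. With CNF3 no dose passed, at 0.33 (adjusted p = 0.49), 0.71 (adjusted p = 0.14) and 0.52 (adjusted p = 0.35). Against a common control without the CNF3 vehicle arrays, the CNF3 difference at 2.0 mg/kg was 1.51 ± 0.32 (adjusted p = 0.00023). The adjusted p over the alternatives ran from that value to 0.67. That control was chosen after the high Cxcl6 values of the CNF3 vehicle had been seen. A larger difference was therefore built into the choice, and it is no test of CNF3. With the control-spot factors and the own vehicles the CNF3 difference was 0.31 (adjusted p = 0.55). The array median and the control spots differed between dose levels in the same arrays. With the median of each array subtracted, Cxcl6 remained called at 0.5 mg/kg of CNF1 (1.25, adjusted p = 0.0028) and CNF2 (1.80, adjusted p = 3.5e-05) and at 1.0 mg/kg of CNF2 (1.84, adjusted p = 4.1e-05). With the control-spot factors these differences were -0.04 (adjusted p = 0.99), 0.45 (adjusted p = 0.73) and 0.24 (adjusted p = 0.92), so the order of Cxcl6 by dose did not hold there. In the CNF2 vehicle of day 3 the control spots averaged -1.60 and Cxcl6 read -2.28, and in the CNF3 vehicle of day 7 they averaged 0.16 and Cxcl6 read 0.42.

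**Figure D3:**
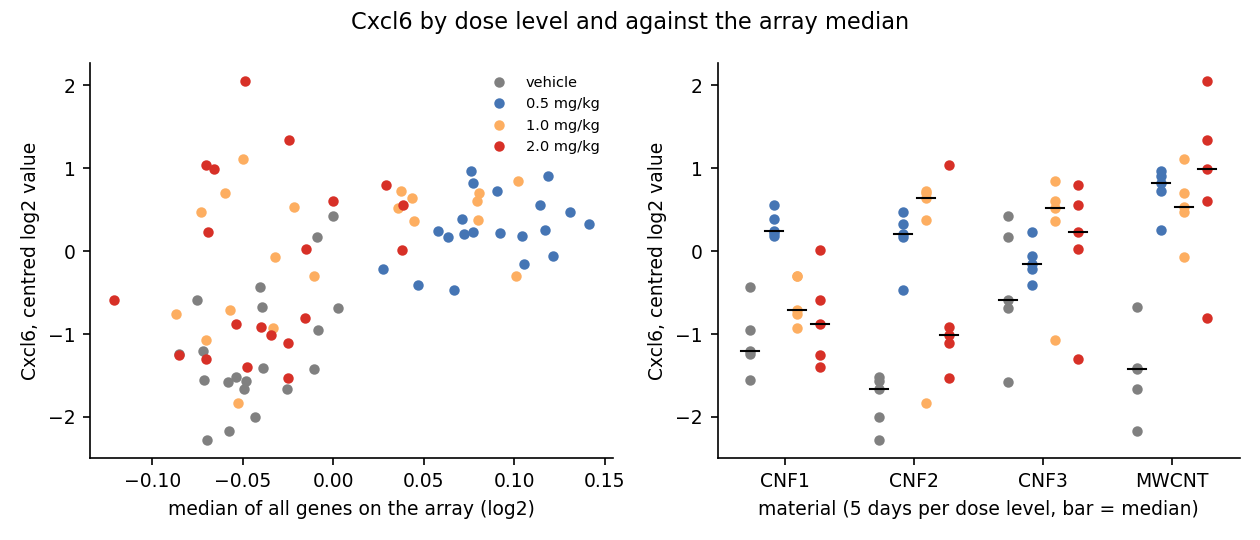
Left, Cxcl6 (vertical axis, centred log2 value) against the median of all genes on the same array (horizontal axis, log2), 80 arrays coloured by dose level; right, the same values by material and dose level, 5 days each, with the median as a bar. The CNF1 arrays at 0.5 mg/kg sit between 0.18 and 0.56, and the CNF3 vehicle reaches 0.42.

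Cxcl3 was measured by 2 probes that did not move together. Their correlation was 0.05 over 80 arrays, against a median of 0.39 for the 3071 genes with exactly 2 probes, 26.2% of which had a lower value. Probe A_44_P363116 followed Cxcl2 (r = 0.83), and probe A_44_P255029 did not (r = 0.03). Their average rose after MWCNT at 2.0 mg/kg, from vehicles of 0.21, -0.47, 0.03, -0.06 and 0.26 to -0.23, 0.55, 0.81, 1.28 and 1.48, by 0.78 ± 0.18 (adjusted p = 0.0013). By probe the difference was 1.14 ± 0.21 for A_44_P363116 (adjusted p = 0.00011) and 0.42 ± 0.32 for A_44_P255029 (adjusted p = 0.41). On day 1 the former was 0.07 against a vehicle of -0.61, and the latter -0.54 against 1.03. After the nanofibrils at 2.0 mg/kg the average passed for none, at 0.22 (adjusted p = 0.36), 0.43 (adjusted p = 0.061) and 0.01 (adjusted p = 0.97) for CNF1, CNF2 and CNF3. At the lower doses the average passed for CNF2 at 0.5 mg/kg (0.50, adjusted p = 0.018) and CNF1 at 1.0 mg/kg (0.45, adjusted p = 0.046). With the control-spot factors these were -0.06 (adjusted p = 0.95) and -0.04 (adjusted p = 0.98), and both calls were also lost without day 3 and with the median of each array subtracted. With MWCNT the average was 0.42 at 0.5 (adjusted p = 0.062) and 0.50 at 1.0 mg/kg (adjusted p = 0.052). At 2.0 mg/kg probe A_44_P363116 alone was called higher after CNF1 (0.59, adjusted p = 0.02) and CNF2 (0.92, adjusted p = 0.00094). On days 1 to 7 of CNF1 the probes were called in opposite directions, at 1.02 ± 0.25 for A_44_P363116 (adjusted p = 0.00089) and -0.89 ± 0.37 for A_44_P255029 (adjusted p = 0.045). The gene average of 0.06 (adjusted p = 0.88) does not describe either. Which probe reports the Cxcl3 transcript was not tested.

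**Figure D4:**
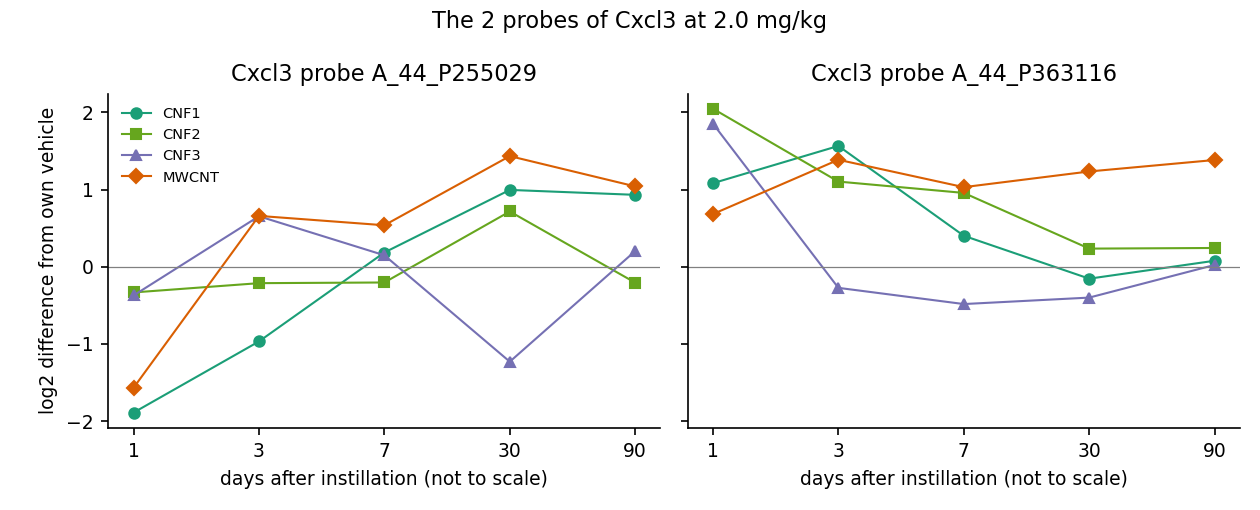
Difference from the own vehicle (vertical axes, log2) at 2.0 mg/kg by day (horizontal axes, evenly spaced) for the 2 probes of Cxcl3, 1 line per material and 1 array minus its vehicle per point. For CNF1 on days 1 to 7 the left probe lies on average 0.89 below the vehicle and the right probe 1.02 above it.

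Split by period, Cxcl2 rose after all 4 materials in the first week. On days 1, 3 and 7 at 2.0 mg/kg the differences were 1.53 ± 0.35 for CNF1 (adjusted p = 0.00041), 1.52 for CNF2 (adjusted p = 7e-04), 1.58 for CNF3 (adjusted p = 0.0016) and 1.54 for MWCNT (adjusted p = 0.0028). The share of all genes called higher in that period was 24.2%, 18.9%, 10.2% and 8.06% in the same order. MWCNT minus CNF1 was 0.01 on these days, with a 95% confidence interval from -0.99 to 1.01, so differences within that range were not excluded. None of the 12 differences of MWCNT from a nanofibril passed in the first week, a test in which 4.81% of all genes were called against CNF1, 0.0879% against CNF2 and 0.0377% against CNF3. Without day 1, 3 of them passed, namely Cxcl1 against CNF1 (1.49, adjusted p = 0.0052) and CNF3 (1.91, adjusted p = 0.0036) and Cxcl6 against CNF1 (2.94, adjusted p = 0.008). On days 30 and 90 the Cxcl2 difference was 2.91 ± 0.43 for MWCNT, a 7.51-fold difference (adjusted p = 1.2e-05). It was 0.66 for CNF1 (adjusted p = 0.6), 0.24 for CNF2 (adjusted p = 0.9) and 0.70 for CNF3 (adjusted p = 0.52). In the late period 10.6% of all genes were called after MWCNT, 1.32% after CNF1, 2.56% after CNF2 and 3.92% after CNF3.

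Cxcl3 (1.27 ± 0.28, adjusted p = 0.0022) and Cxcl6 (2.75 ± 0.52, adjusted p = 0.00047) were also called on days 30 and 90 of MWCNT, and Cxcl1 was not (0.96 ± 0.33, adjusted p = 0.057). With probe A_44_P255029 alone the late Cxcl3 difference was 1.24 and did not pass (adjusted p = 0.079). In the first week Cxcl6 rose after MWCNT (2.01 ± 0.43, adjusted p = 0.0016), and Cxcl1 and Cxcl3 did not pass (0.71, adjusted p = 0.08, and 0.45, adjusted p = 0.19). None of the 12 nanofibril values of the late period passed, the nearest being Cxcl6 after CNF2 (1.76 ± 0.52, adjusted p = 0.062). Without day 1 the Cxcl2 difference of CNF3 in the first week was 0.56 (adjusted p = 0.18, range over alternatives 0.00016 to 0.18). The first-week MWCNT calls were lost without day 3, at 1.39 for Cxcl2 (adjusted p = 0.061) and 1.63 for Cxcl6 (adjusted p = 0.079), and that of Cxcl6 also without day 7 (1.69, adjusted p = 0.058). Cxcl2 was lost as well with the vehicle and 2.0 mg/kg arrays alone (adjusted p = 0.079). Over 15 alternatives the adjusted p ran from 2e-05 to 0.079 for Cxcl2 and from 0.0005 to 0.079 for Cxcl6. With day 90 as the only late day, Cxcl3 did not pass (1.21, adjusted p = 0.13). With day 30 as the only late day, none of the 3 late MWCNT calls passed, at 2.32 for Cxcl2 (adjusted p = 0.14), 1.33 for Cxcl3 (adjusted p = 0.19) and 2.77 for Cxcl6 (adjusted p = 0.086). Those are the highest adjusted p-values of the 3 results over their alternatives, and the lowest were 1.1e-08, 8e-05 and 3.1e-06.

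**Figure D5:**
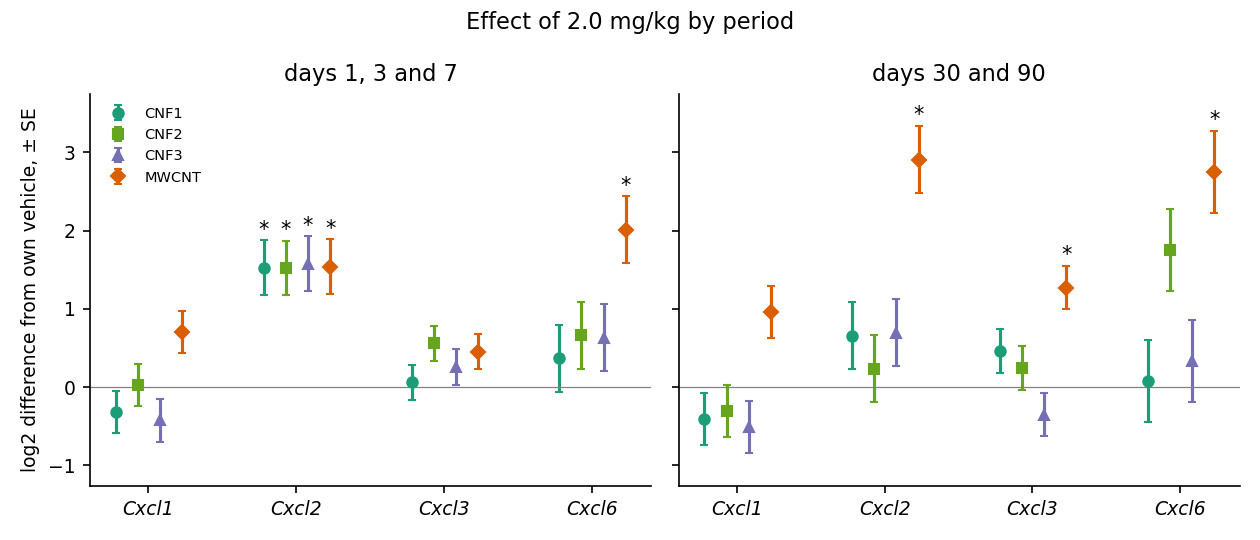
Fitted difference from the own vehicle at 2.0 mg/kg (vertical axes, log2, bars are ± SE) for each gene and material on days 1, 3 and 7 (left) and days 30 and 90 (right); asterisks mark adjusted p under 0.05. The 4 materials sit between 1.52 and 1.58 for Cxcl2 on the left, and on the right MWCNT stands at 2.91 while the nanofibrils lie between 0.24 and 0.70.

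The change of the effect from the first week to days 30 and 90 was tested directly. For Cxcl2 it was 1.37 ± 0.55 for MWCNT (adjusted p = 0.52), -0.87 for CNF1 (adjusted p = 0.34), -1.28 for CNF2 (adjusted p = 0.2) and -0.88 for CNF3 (adjusted p = 0.89). None of the 16 values of the 4 genes passed in limma, and 3 were under 0.05 before adjustment, namely Cxcl2 after MWCNT and CNF2 and Cxcl3 after MWCNT. Of all genes, 9.28% were called in this change after CNF1, 1.80% after CNF2, 0.0816% after CNF3 and 0.0565% after MWCNT. A test added after the time courses were seen compared that change between materials. For Cxcl2, MWCNT minus nanofibril was 2.24 ± 0.78 for CNF1 (adjusted p = 0.24), 2.65 for CNF2 (adjusted p = 0.73) and 2.25 for CNF3 (adjusted p = 1). None of the 12 values over the 4 genes passed, and 5 had an unadjusted p under 0.05. The shares of all genes called there were 0.0314%, 0.00% and 0.0188%.

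Between the materials at 2.0 mg/kg over the 5 days, 3 of 24 differences passed, and each had MWCNT as the higher one. Cxcl1 differed between MWCNT and CNF1 by 1.16 ± 0.28 (adjusted p = 0.022) and between MWCNT and CNF3 by 1.27 ± 0.28 (adjusted p = 0.015). Cxcl6 differed between MWCNT and CNF1 by 2.05 ± 0.51 (adjusted p = 0.027). The shares of all genes called were 1.63% for MWCNT against CNF1, 0.107% against CNF2 and 0.484% against CNF3. Cxcl2, for which all materials had passed against their vehicles, differed by 0.91 ± 0.44 from CNF1 (adjusted p = 0.26), 1.08 from CNF2 (adjusted p = 0.53) and 0.86 from CNF3 (adjusted p = 0.71). No nanofibril pair passed for any of the 4 genes, with called shares of 0.207% for CNF2 against CNF1, 0.00% for CNF3 against CNF1 and 0.151% for CNF3 against CNF2. For Cxcl2 the 95% confidence interval of CNF3 minus CNF1 ran from -0.84 to 0.93. On days 30 and 90, Cxcl2 differed between MWCNT and CNF2 by 2.67 ± 0.60 (adjusted p = 0.044, 0.182% of all genes called), and this was 1 call among 12 values, 11 of which had an unadjusted p under 0.05. The corresponding values were 2.25 against CNF1 (adjusted p = 0.11, 0.195% called) and 2.21 against CNF3 (adjusted p = 0.13, 0.320% called). Fitted on the vehicle and 2.0 mg/kg arrays alone, none of the 4 calls between materials passed (adjusted p = 0.21, 0.39, 0.12 and 0.99 in the order given), and each was also lost when any one of days 3, 7 and 30 was left out. Without day 90 the calls of Cxcl1 against CNF3 (adjusted p = 0.14) and of Cxcl2 (adjusted p = 1) were lost too. The lowest adjusted p over their 14 alternatives were 0.00042, 5.6e-05, 0.0015 and 0.00021.

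Across the 80 arrays the 4 genes were loosely tied to each other, with arrays that share vehicles, days and the pattern by dose level. The correlation was 0.46 for Cxcl1 with Cxcl2, 0.49 for Cxcl1 with Cxcl3 and 0.52 for Cxcl2 with Cxcl3. With Cxcl6 it was 0.29 for Cxcl1, 0.47 for Cxcl2 and 0.46 for Cxcl3. The genes with the pattern most like each member were named by the highest Pearson correlation over the 80 arrays. For Cxcl1 they were Noxo1 (0.76), Csf2 (0.76), Ly6c (0.69), Slc6a20a (0.67) and S100a9 (0.67). For Cxcl2 they were Il1r2, a decoy receptor of interleukin-1 (0.81), Lcn2 (0.81), Sod2 (0.81), Tnfrsf9 (0.79) and Il1b (0.79). For Cxcl6 they were Grid2ip (0.79), Tnn (0.75), Siglec1 (0.74), Marco (0.72) and Osm (0.72), of which Siglec1 and Marco are macrophage surface receptors. For the averaged Cxcl3 they were Gk (0.70), C4bpa (0.68), Itih1 (0.67), Slc16a11 (0.66) and Klk13 (0.66). When the 60 differences from the own vehicle were used in place of the values, 1 of the 5 genes stayed in the list of Cxcl1 and 2 of 5 in each of the other lists.

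Over the 5 days the receptor gene Cxcr1 was called after each nanofibril and not after MWCNT, and on days 30 and 90 it was called after MWCNT too. After MWCNT at 2.0 mg/kg the 5-day difference was 0.24 ± 0.24 for Cxcr1 (adjusted p = 0.56) and 0.52 ± 0.26 for Cxcr2 (adjusted p = 0.17), the main receptor of these ligands on neutrophils. Cxcr1 rose by 0.60 after CNF1 (adjusted p = 0.034), 0.76 after CNF2 (adjusted p = 0.011) and 0.63 after CNF3 (adjusted p = 0.05, under the threshold before rounding). On days 30 and 90 its difference was 1.20 ± 0.29 after MWCNT (adjusted p = 0.0058), 1.10 after CNF1 (adjusted p = 0.047) and 0.97 after CNF3 (adjusted p = 0.053). After CNF2 it was 1.54 on day 30 and 1.46 on day 90 (adjusted p = 0.0019). By day it was -0.69, -0.70, 0.17, 1.22 and 1.18 with MWCNT and 0.22, 0.44, 0.58, 1.42 and 0.51 with CNF3. Cxcr2 after MWCNT was 0.15, 0.88, -0.34, 0.31 and 1.58 above its vehicle on days 1 to 90, so it was highest on the last day. After the nanofibrils it passed for none, at -0.10 (adjusted p = 0.84), 0.09 (adjusted p = 0.82) and -0.23 (adjusted p = 0.61) for CNF1, CNF2 and CNF3.

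Among 9 other CXC ligands measured, 6 rose and 1 fell after MWCNT at 2.0 mg/kg, with a median difference of 0.71 against 0.01 for all genes. The counts of this and the lists that follow stand beside a share of all genes called of 21.8% after MWCNT, 41.6% after CNF1, 31.3% after CNF2 and 19.7% after CNF3. The interferon-induced T-cell attractants rose by 2.54 ± 0.42 for Cxcl11 (adjusted p = 2.2e-05), 2.20 ± 0.39 for Cxcl10 (adjusted p = 5.9e-05) and 0.76 ± 0.14 for Cxcl9 (adjusted p = 1.1e-04). The platelet factor Pf4, which lies between Cxcl3 and Cxcl6 in the cluster, rose by 0.88 (adjusted p = 0.0066), Cxcl17, a mucosal chemokine, by 0.71 (adjusted p = 1.9e-06) and Cxcl13, a B-cell attractant, by 0.45 (adjusted p = 0.015). Cxcl14 fell by 0.50 on the log2 scale (adjusted p = 0.022). Ppbp, the other platelet chemokine of the cluster, was at -0.07 (adjusted p = 0.85) and Cxcl12 at 0.05 (adjusted p = 0.77). Of the same 9 ligands, 3 rose and 1 fell after CNF1, 4 and 1 after CNF2, and 3 and 1 after CNF3, with medians of 0.22, 0.23 and 0.22, so for CNF1 the share called was near that of all genes.

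The cytokines that switch the chemokines on were followed as a list of 11 measured genes. After MWCNT 3 of them rose and none fell (median 0.21), namely Il1b (0.97 ± 0.21, adjusted p = 0.00059), Tnf (0.90 ± 0.23, adjusted p = 0.0034) and the tumour necrosis factor receptor Tnfrsf1b (0.87 ± 0.14, adjusted p = 1e-05). After CNF1 6 rose and 2 fell, after CNF2 6 rose, and after CNF3 1 rose, with medians of 0.35, 0.46 and 0.22. For MWCNT and CNF3 these counts are near or below the share of all genes called (21.8% and 19.7%). On day 1 Tnf was 1.45, 1.70 and 2.00 above the vehicle with CNF1, CNF2 and CNF3, and 0.71 with MWCNT. Cxcl2 stood in the same order on that day, a match of single arrays that was not tested. The orders differed on day 3. Tnf was then 1.14, 1.12 and 0.48 above the vehicle with CNF1, CNF2 and CNF3, and 1.01 with MWCNT. Cxcl2 was 1.84 above the vehicle with MWCNT on day 3 and 1.18 on average with the nanofibrils. By day 90 the Tnf differences were -0.12, 0.20 and 0.14 for the nanofibrils and 1.42 for MWCNT. Il1b was 1.03, 1.65 and 1.77 above the vehicle on day 1 of CNF1, CNF2 and CNF3, 0.98 on day 1 of MWCNT, and 1.52 on day 90 of MWCNT.

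Of 15 measured genes of the NF-κB pathway and its early targets, 7 rose and 1 fell after MWCNT, with a median of 0.32. Sod2, the mitochondrial superoxide dismutase, rose by 1.56 ± 0.22 (adjusted p = 1.6e-06) and Birc3, an inhibitor of cell death, by 0.93 ± 0.17 (adjusted p = 7.9e-05), while the subunit Rela fell by 0.30 on the log2 scale (adjusted p = 5.7e-05). In CNF1, CNF2 and CNF3 10, 7 and 4 of these genes rose and 2 fell in each, with medians of 0.34, 0.15 and 0.17. Among 9 genes that control the decay or stability of chemokine mRNA, 2 rose and 1 fell after MWCNT, with a median of 0.02. The RNase Zc3h12a rose by 0.67 ± 0.10 (adjusted p = 6.1e-06), Arid5a, an mRNA-stabilizing protein, by 0.25 (adjusted p = 0.049), and the interleukin-17 receptor adaptor Traf3ip2 fell by 0.19 on the log2 scale (adjusted p = 0.034). After CNF1 and CNF2 2 rose and 1 fell in each, and after CNF3 none rose and 1 fell. For the nanofibrils that is near or below the share of all genes called (41.6%, 31.3% and 19.7%). Zc3h12a was 0.46, 0.52, 0.70, 0.71 and 0.99 above the vehicle on days 1 to 90 of MWCNT, and so higher on each later day.

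Of 9 measured genes for neutrophil growth, adhesion and attraction, 3 rose after MWCNT, with a median of 0.36. Lcn2, an iron-scavenging protein of neutrophils and epithelium, rose by 3.61 ± 0.54 (adjusted p = 3.9e-06), the complement receptor C5ar1 by 0.68 ± 0.13 (adjusted p = 1.8e-04) and the growth factor Csf2 by 0.36 ± 0.11 (adjusted p = 0.01). After CNF1 3 of the 9 rose and 1 fell, after CNF2 4 rose and after CNF3 2 rose, which for CNF1 and CNF3 is near the share of all genes called (41.6% and 19.7%).

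Markers of several cell types were also called, and their part in the results above was not tested. Of 14 measured neutrophil markers, 7 rose and 1 fell after MWCNT at 2.0 mg/kg, with a median of 0.74. The surface protein Cd177 rose by 3.51 ± 0.32 (adjusted p = 3.4e-11), the decoy receptor Il1r2 by 2.08 ± 0.34 (adjusted p = 1.3e-05) and the calcium-binding alarmin S100a9 by 1.85 ± 0.27 (adjusted p = 1.6e-06). Mpo, Elane and Ngp, granule genes of immature neutrophils, were picked from the list after their values were seen. Mpo was at -0.12 (adjusted p = 0.79) and Elane at -0.02 (adjusted p = 0.97). Ngp, the 1 marker that fell, was lower by 0.72 on the log2 scale (adjusted p = 0.019). Camp, Mmp8 and Mmp9, also in the list, are not given here. The mean of the 14 marker differences ran from 0.53 to 1.60 over the 5 MWCNT arrays, from -0.23 to 0.75 for CNF1, from 0.11 to 0.58 for CNF2 and from -0.03 to 0.88 for CNF3. In the nanofibrils 3 markers rose and 2 fell for CNF1, 4 and 2 for CNF2, and 2 and 0 for CNF3, with medians of -0.02, 0.22 and 0.01. For CNF1 and CNF3 that is below the share of all genes called (41.6% and 19.7%). Cd177 was 1.82, 3.38, 3.80, 4.26 and 4.29 above the vehicle on days 1 to 90 of MWCNT. On days 1 and 3 it was 1.03 and 2.45 above the vehicle with CNF1, 0.60 and 1.43 with CNF2 and 2.14 and 1.67 with CNF3, and on days 30 and 90 of the nanofibrils between -0.47 and 0.59. Cxcr2 stands both in this list and among the receptors.

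Of 11 macrophage and monocyte markers, 6 rose after MWCNT, 5 after CNF1 (2 fell), 5 after CNF2 and 4 after CNF3. The scavenger receptor Msr1 rose by 1.21 ± 0.15 after MWCNT (adjusted p = 1.2e-07), Cd68 by 1.29 (adjusted p = 1.7e-05) and Siglec1 by 1.38 (adjusted p = 0.00026). Type 2 epithelial markers rose in 4 of 8 cases after MWCNT, in 2 of 8 after CNF1 and in none after CNF2 or CNF3. All 7 measured type 1 markers fell after MWCNT, CNF1 and CNF2 and 4 of 7 after CNF3, and 5, 5, 5 and 3 of 8 endothelial markers fell after MWCNT, CNF1, CNF2 and CNF3. Red blood cell markers did not pass after MWCNT, and 2 of 3 fell after CNF1 and 1 after CNF2. None of 4 T-cell markers passed except 1 that fell after CNF1, and 3 of 3 B-cell markers fell after each nanofibril and none passed after MWCNT.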

How the data were processed

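RNA of 80 right-lung samples was labelled with Cy3 and hybridised to 1-colour Agilent arrays, and the submitters' processing notes name version 12.0.3.1 of Agilent Feature Extraction. The authors deposited normalized values on a log scale, treated here as log2, centred probe by probe; background correction, detection and further steps are not given in the sources used here. The series table and the 80 single files held the same values. Of 41012 rat probes, 20932 had 1 gene symbol (17415 updated through an accession), and probes of a gene were averaged, giving 15924 genes. limma 3.58.1 (R 4.3.3) fitted differences from the own vehicle with material and day as blocks, over 5 days (48 residual degrees of freedom), by period (36) and as dose slopes (40), and F tests in the vehicles (12). P-values were adjusted by Benjamini-Hochberg over all genes or probes. The number of arrays limits precision, with a median SE of 0.12 over 5 days and 0.17 late. The fits were tested on simulated data.

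The members, gene lists and tests were chosen with earlier results of these data known. Besides the 4 members, the receptors and other CXC ligands were named in full, up to 3 genes of each other list were named by the smallest p after MWCNT at 2.0 mg/kg, and the 5 genes most correlated with each member. Mpo, Elane and Ngp were chosen after their values were seen. Alternatives covered the normalization, spots, probes, variance model, control arrays, dose scale and single days or doses left out. Array probes were not placed on a genome, and Ackr1, Cxcl16 and some further listed genes were not named on the array.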

Additional observations from a re-analysis of the deposited data

Results flagged for a closer look

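Differences between materials under the same contrast passed the test of the difference itself in 4 cases, all with MWCNT above a nanofibril at 2.0 mg/kg. Over the 5 days Cxcl1 was higher after MWCNT than after CNF1 by 1.16 and than after CNF3 by 1.27, with the exposed array above its vehicle in 5 of 5 MWCNT arrays and in 1 of 5 arrays of each of these nanofibrils. Cxcl6 was higher after MWCNT than after CNF1 by 2.05, with 5 of 5 MWCNT arrays and 2 of 5 CNF1 arrays above the vehicle. On days 30 and 90 Cxcl2 was higher after MWCNT than after CNF2 by 2.67.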

How the results depend on the processing

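Arrays were paired by material and day in the reported fits. By replicate number, no paired analysis was possible because each group held 1 array, and the number in its label, 4 or 3, marks no rat across groups. Of the member results recomputed under 20 settings, 3041 values kept their side of the threshold, 91 lost a call, 127 gained one and 8 turned. Each of the 8 changed sign and was called in the reported fit or in the alternative. Values called in neither could change sign and still count among the 3041. Cxcl2 at 1.0 mg/kg of CNF2 did so with control-spot factors, from 0.75 to -0.78. Cxcl3 on days 1 to 7 of CNF1 turned to -0.89 with probe A_44_P255029 alone or with the widest-spread probe. With control-spot factors, Cxcl2 turned to -0.40 and Cxcl6 to -0.0377 at 0.5 mg/kg of CNF1, Cxcl2 to -0.59 and Cxcl3 to -0.0606 at 0.5 mg/kg of CNF2, and Cxcl2 to -0.0079 and Cxcl3 to -0.0386 at 1.0 mg/kg of CNF1. The lower doses and the materials in the first week were added to these settings after the data were seen. Members called higher at 0.5 or 1.0 mg/kg (15 of 32) numbered 0 with control-spot factors and 10 to 16 with a day left out. Between materials on days 1 to 7 the count was 0, 2 with the common control, 3 without the CNF3 vehicle in it and 0 to 3 with a day left out. Members called higher at 2.0 mg/kg over 5 days (8 of 16) stayed between 6 and 9 with a day left out. Of 24 values between materials 3 passed, and 1 did after quantile normalization, 8 with a common control with or without the CNF3 vehicle (the latter chosen after seeing the data), 0 with 2.0 mg/kg and vehicle arrays alone, and 0 to 9 with a day left out. For days 1 to 7 the count was 5, 8 by single probes, 8 with the common control without the CNF3 vehicle, and 3 to 6 with a day left out. For days 30 and 90 it was 3, 5 with 3 factors of the control spots or the common control without the CNF3 vehicle, and 0 to 5 with a day left out. Between materials in that period it was 1, 0 after quantile normalization, by single probes or with 2.0 mg/kg and vehicle arrays alone, 8 with either common control and 0 to 7 with a day left out. In the change of the effect between periods it was 0, 2 with the common control, 1 without the CNF3 vehicle in it and 0 to 1 with a day left out. Of 80 slopes 2 passed, and 0 after quantile normalization, 14 with control-spot factors, 5 with dose as a rank, and 0 to 2 with a dose level left out. In the vehicles 1 of 8 tests passed, 0 with control-spot factors and 0 to 1 with a day left out. The cause of these changes was not tested, and fewer arrays enter each fit that leaves some out. Signal over background could not be judged from centred values.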

Other observations

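The genes nearest to the mean of Cxcl1, Cxcl2, Cxcl3 and Cxcl6 over the 80 arrays were Chi3l1, a chitinase-like protein of macrophages and epithelium (r = 0.80), the neutrophil surface gene Cd177 (0.80), Noxo1, an organizer of an NADPH oxidase (0.78), C4bpa (0.77), Ceacam4 (0.77), Zc3h12a (0.76), Gk (0.75), Rhbdf2 (0.73), Gch1, which opens the synthesis of tetrahydrobiopterin (0.72), and Slc16a6 (0.72). With the 60 differences from the own vehicle in place of the values, 6 of these 10 genes stayed in the list. Lcn2 was 3.19, 2.14 and 4.11 above the vehicle on day 1 of CNF1, CNF2 and CNF3 at 2.0 mg/kg and 0.76 on day 1 of MWCNT. The exposed arrays of that day read 1.83, 1.07 and 2.10 for the nanofibrils and 0.96 for MWCNT. The MWCNT vehicle of day 1 read 0.20, whereas all other Lcn2 vehicle values lay between -3.30 and -0.87. The MWCNT difference of day 1 was thus taken from the highest Lcn2 vehicle value, and the exposed MWCNT array was also the lowest of that day. The vehicle value of -3.30 belonged to MWCNT on day 3, where the difference was 5.07. The part of the vehicles in these differences was not tested. On day 90 the Lcn2 difference was 0.61, 0.70 and 1.29 for the nanofibrils and 4.52 for MWCNT.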
